A study of Mus musculus with 12 samples.

Results

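The route from the insulin receptor to glucose uptake was followed through 9 genes in mouse epididymal white adipose tissue (eWAT): Insr, Irs1, Irs2, Pik3r1, Akt1, Akt2, Tbc1d4, Slc2a4 and Slc2a1. They were found by gene name in the deposited transcript table, and all their entries that carried an Ensembl transcript identifier, 102 in all, were summed per gene. The 9 genes are part of 22947 genes obtained in the same way, and all 9 were among the 12775 genes that passed the filter on low values. The tissue came from male C57BL/6J mice, 3 in each of 4 groups, aged 21 weeks after 16 weeks on their diet. The ND group received a normal diet and the HFD group a high-fat diet. The CLE group received the same high-fat diet with 1.5% (w/w) of an ethanol extract of chrysanthemum leaves. In the LU group the high-fat diet contained 0.003% (w/w) of luteolin, a plant flavone. The 12 libraries were made from whole tissue, which holds adipocytes together with macrophages, endothelial cells and other cells. Levels are in FPKM, that is, sequenced fragments scaled to transcript length and to library size.

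Insulin binds its receptor on the surface of the adipocyte, and the activated receptor phosphorylates the insulin receptor substrates. These recruit phosphoinositide 3-kinase, whose lipid product brings the kinase Akt to the membrane. Akt phosphorylates Tbc1d4, which otherwise holds vesicles with the glucose transporter GLUT4 inside the cell, so that GLUT4 reaches the surface and glucose enters. Much of this control acts on proteins and their location, while the values here are transcript levels.

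Differences are log2 fold changes of FPKM + 1 from limma, which understate the change of genes with low FPKM. A gene was called when limma gave it a Benjamini-Hochberg adjusted p below 0.05 together with a change of more than 1.5-fold. Mice of the same group correlated over genes with a Pearson's r of 0.978 to 0.991. A letter R of unstated meaning stands in 4 labels (LU mouse 2, CLE mouse 4 and ND mice 3 and 4) and in no HFD label, and the headers of these 4 libraries carry a date-like number that the other headers lack. Differences from HFD therefore cannot be told apart from this mark except among the other libraries. Without the marked libraries, ND mouse 2 stands alone in its group. For comparisons with ND, that fit is therefore given by its log2 fold change only. Nothing in the labels ties the libraries of a group beyond the mouse number, so the p-values measure the spread between single mice. The authors sequenced mice chosen as representative of larger groups, so this spread may differ from that of the whole groups. All mice had been fasted before the tissue was taken.

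In the HFD group, 5 of the 9 genes fell against ND, namely Insr, Irs1, Irs2, Pik3r1 and Akt2, and none rose. Of all genes tested, 25.6% were called in this comparison, 10.8% lower and 14.9% higher. The median log2 fold change was -0.65 over the 9 genes and -0.019 over all genes. The ranges of the 2 groups did not overlap for 7 of the 9 genes, beside 59.5% of all genes, and 7 of the 9 had an adjusted p below 0.05 without regard to the fold change, beside 50.5%. Slc2a4, which encodes GLUT4, was not called.

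With CLE in the high-fat diet, 3 of the 9 genes rose against HFD, namely Insr, Irs2 and Akt2, and none fell. The share called over all genes was 16.5%, with 6.33% higher and 10.1% lower. The median log2 fold change was 0.22 over the 9 genes and 0.005 over all genes. The ranges of CLE and HFD did not overlap for 5 of the 9 (50.6% of all genes), and 4 had an adjusted p below 0.05 alone (33.6% of all genes). With LU, Irs2 alone was called higher, 1 of 9 genes, beside 12.4% of all genes called, 4.81% higher and 7.64% lower. The corresponding medians were 0.19 and 0.032, 5 of the 9 genes did not overlap (47.6% of all genes) and 3 had an adjusted p below 0.05 alone (26.8% of all genes). The 3 comparisons share the HFD mice.

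**Figure D1:**
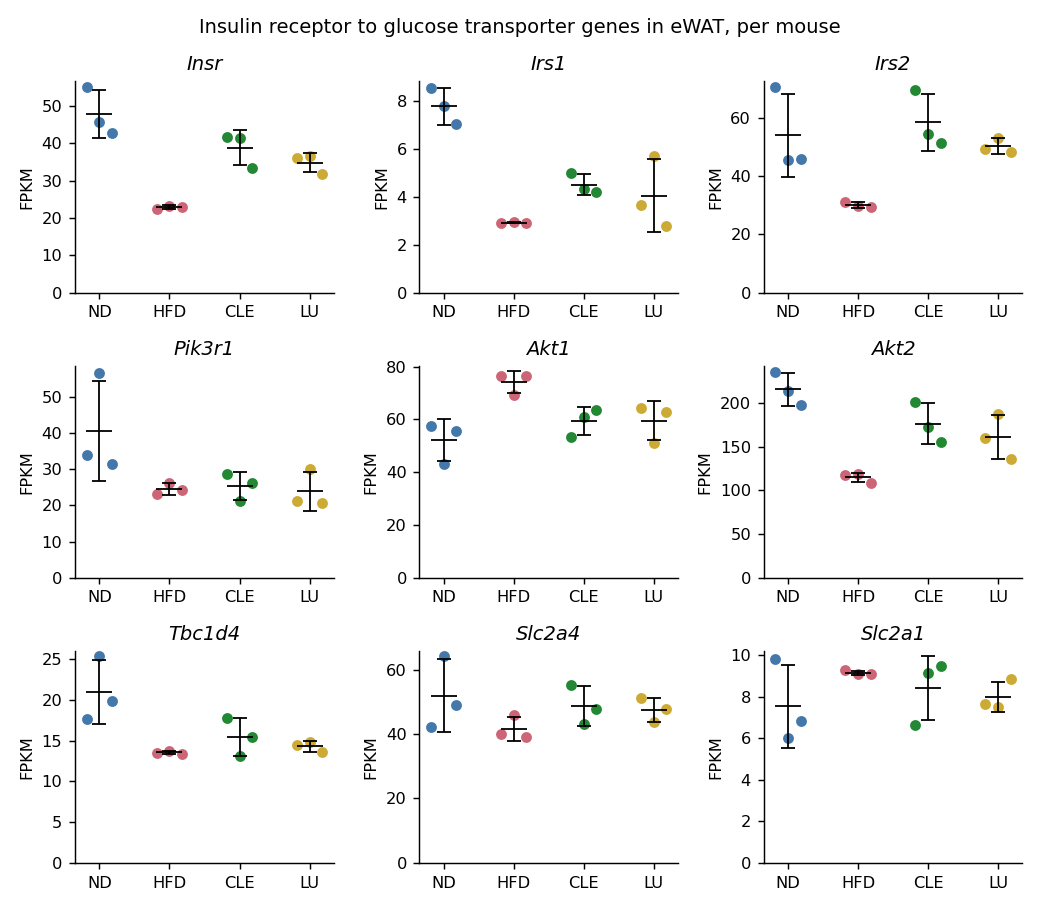
FPKM of the 9 genes (vertical axes, starting at 0, with a separate scale per gene) in each mouse of the ND, HFD, CLE and LU groups. Points are mice, and the black bars give the mean ± SD of 3 mice. Insr, Irs1, Irs2 and Akt2 lie lower in all 3 HFD mice than in all 3 ND mice, while the Slc2a4 and Slc2a1 values of the 2 groups overlap.

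Insr encodes the insulin receptor and lies on the minus strand at chr8:3122061-3279617 (GRCm38). Its level in ND mice 2, 3 and 4 was 55.1, 45.7 and 42.8 FPKM, and in HFD mice 12, 15 and 18 it was 22.3, 23.3 and 23.1 FPKM. CLE mice 2, 4 and 11 had 41.8, 41.3 and 33.4 FPKM. LU mice 2, 3 and 8 had 36.2, 36.6 and 31.8 FPKM. Every HFD mouse thus lay below every mouse of the other groups, and the ND mice lay above all CLE and LU mice. The log2 fold change was -1.03 ± 0.11 (SE, adjusted p = 2.6e-05, limma) for HFD against ND and 0.73 ± 0.11 (adjusted p = 0.00061) for CLE against HFD. For LU against HFD it was 0.58 ± 0.11 (adjusted p = 0.0037), just under the fold change required for a call.

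The difference in Insr was unequal over its transcript entries. The table holds 2 annotated entries of Insr and 6 that were assembled from the reads and share part of the annotated splicing. The annotated entries summed to 15.6, 11.2 and 13 FPKM in ND mice 2, 3 and 4 and to 11.6, 10.9 and 9.78 FPKM in HFD mice 12, 15 and 18. These ranges overlap. The assembled entries summed to 39.4, 34.5 and 29.8 FPKM in the ND mice and to 10.7, 12.4 and 13.3 FPKM in the HFD mice, with no overlap. One assembled entry, which covers only the 3′ part of the gene (chr8:3150755-3167723), had 20.4, 16.7 and 13.4 FPKM in ND and 1.82, 3.1 and 5.88 FPKM in HFD. When the assembled entries of class code j were left out of the gene values, Insr was no longer called in HFD against ND (log2 fold change -0.27, adjusted p = 0.23) or in CLE against HFD (0.24, adjusted p = 0.34). How fragments are divided between such entries is an estimate of the authors' quantification.

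The insulin receptor substrates dock the downstream signalling proteins. Irs1, on chr1:82233101-82291416 (minus strand), was the least abundant of the 9 genes in HFD. ND mice 2, 3 and 4 had 8.53, 7.77 and 7.02 FPKM, and HFD mice 12, 15 and 18 had 2.91, 2.93 and 2.90 FPKM. CLE mice 2, 4 and 11 had 5.01, 4.34 and 4.18 FPKM, and LU mice 2, 3 and 8 had 3.65, 5.72 and 2.76 FPKM. The CLE mice lay between the ND and HFD mice without overlap, while LU mouse 8 lay below all HFD mice. Irs1 fell by 1.16 ± 0.17 on the log2 scale in HFD against ND (adjusted p = 0.00017, limma). The difference between CLE and HFD was 0.49 ± 0.17 (adjusted p = 0.041), under the required fold change. For LU against HFD the value was 0.32 ± 0.17 (adjusted p = 0.17).

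Against ND, Irs1 had the largest log2 difference of the 9 genes in both supplemented groups. It was called lower in CLE against ND (-0.67 ± 0.17, adjusted p = 0.044, limma), as 1 of 9 genes beside 2.91% of all genes called and 0.853% called lower. The call was lost in 10 of the 12 fits that left out 1 library each, among them every fit without an ND or a CLE mouse, with adjusted p between 0.052 and 0.12. In LU against ND, Irs1 (-0.84 ± 0.17, adjusted p = 0.0087) and Pik3r1 were called lower, 2 of 9 genes beside 6.59% of all genes called and 1.62% called lower. Without the libraries with the letter R, ND mouse 2 stands alone in its group, so whether these calls depend on the mark cannot be told.

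Irs2, on chr8:10984681-11008458 (minus strand), had 70.6, 45.7 and 45.8 FPKM in ND mice 2, 3 and 4. HFD mice 12, 15 and 18 had 31.2, 29.7 and 29.2 FPKM. CLE mice 2, 4 and 11 had 69.7, 54.4 and 51.4 FPKM, and LU mice 2, 3 and 8 had 49.5, 53.3 and 48.3 FPKM. All HFD mice lay below all other mice, and the 3 other groups overlapped each other. Irs2 fell by 0.80 ± 0.16 on the log2 scale in HFD against ND (adjusted p = 0.0016, limma). It rose by 0.93 ± 0.16 with CLE (adjusted p = 0.0011) and by 0.73 ± 0.16 with LU (adjusted p = 0.0068) against HFD. CLE and LU differed from ND by 0.13 ± 0.16 and -0.07 ± 0.16 (adjusted p = 0.66 and 0.82). Of the FPKM of Irs2, 83.9% lay in 1 assembled entry. In a limma fit of single entries this one was called in HFD against ND (-0.99 ± 0.16, adjusted p = 0.0019). The annotated entry was not (0.78 ± 0.71, adjusted p = 0.47). It had 9.75, 0.000958 and 5.28 FPKM in ND mice 2, 3 and 4 and 7.88, 5.5 and 4.94 FPKM in HFD mice 12, 15 and 18.

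The share of Irs1 in the sum of Irs1 and Irs2 compares both substrates within a library. It was 12.9% ± 1.91 in ND, 8.85% ± 0.271 in HFD, 7.21% ± 0.441 in CLE and 7.32% ± 2.18 in LU (SD, n = 3). The HFD mice lay below the ND mice, and the CLE mice below the HFD mice, without overlap. Each of these differences reached the smallest p that 3 against 3 mice allow, 0.1 in the exact two-sided permutation test, and 0.15 after Benjamini-Hochberg adjustment over 9 tests. For LU against HFD the exact permutation p was 0.4.

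Pik3r1 encodes regulatory subunits of phosphoinositide 3-kinase and lies at chr13:101680563-101768217 (minus strand). ND mice 2, 3 and 4 had 33.7, 56.5 and 31.3 FPKM, and HFD mice 12, 15 and 18 had 23.1, 26.2 and 24.2 FPKM. CLE mice had 28.6, 21.2 and 26.1 FPKM, and LU mice had 21.1, 30.1 and 20.6 FPKM. ND mouse 3 stood well above the others, and the HFD, CLE and LU mice overlapped. The log2 fold change of HFD against ND was -0.65 ± 0.21 (adjusted p = 0.022, limma). Without ND mouse 3 it was -0.39 (adjusted p = 0.075), and the call was also lost without HFD mouse 12 (adjusted p = 0.066) and without HFD mouse 18 (0.055). Without the libraries with the letter R, which leaves ND mouse 2 alone in its group, the log2 fold change was -0.45. Against HFD, CLE differed by 0.04 ± 0.21 and LU by -0.05 ± 0.21. LU was lower than ND by 0.71 ± 0.21 (adjusted p = 0.048), a call lost in 10 of the 12 fits without 1 library. The difference between HFD and ND was unequal over the entries of Pik3r1. In a limma fit of single entries, the main one was not called (-0.47 ± 0.24, adjusted p = 0.19). An assembled entry of the 3′ part of the gene was called (-2.72 ± 0.54, adjusted p = 0.0051).

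Akt2 is the Akt kinase tied most closely to glucose uptake in adipocytes, and it was the most abundant of the 9 genes in FPKM in every mouse. It lies on the plus strand at chr7:27591552-27640826. ND mice 2, 3 and 4 had 236, 214 and 198 FPKM, and HFD mice 12, 15 and 18 had 117, 119 and 109 FPKM. CLE mice 2, 4 and 11 had 201, 172 and 155 FPKM, and LU mice 2, 3 and 8 had 160, 187 and 136 FPKM. The HFD mice were below all others. Akt2 fell by 0.90 ± 0.13 on the log2 scale in HFD (adjusted p = 0.00015, limma) and rose by 0.61 ± 0.13 with CLE (adjusted p = 0.0039). The CLE call was lost without CLE mouse 2 (0.51, adjusted p = 0.018) and without HFD mouse 18 (0.57, adjusted p = 0.019), since the fold change then came under 1.5. With LU the log2 fold change was 0.48 ± 0.13 (adjusted p = 0.018), a fold change of 1.39.

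Akt1, a kinase of the same family with a broad role in growth and survival, had the opposite order of groups. It lies on the minus strand at chr12:112653821-112674884. Its level was 57.6, 43.0 and 55.7 FPKM in ND mice 2, 3 and 4 and 76.6, 69.2 and 76.6 FPKM in HFD mice 12, 15 and 18. CLE mice had 53.4, 61.0 and 63.7 FPKM, and LU mice had 64.5, 51.1 and 63.0 FPKM. All HFD mice lay above all other mice. The log2 fold change of HFD against ND was 0.51 ± 0.13 (adjusted p = 0.0063, limma), a fold change of 1.43 and thus not a call. Both supplements gave -0.32 ± 0.13 against HFD (adjusted p = 0.077 for CLE and 0.088 for LU). The difference between HFD and ND lay in the assembled entries of Akt1. These summed to 40, 31.6 and 39.1 FPKM in the ND mice and to 57.1, 52.8 and 59.9 FPKM in the HFD mice. The annotated entries overlapped, with 17.5, 11.4 and 16.7 FPKM in ND and 19.5, 16.5 and 16.7 FPKM in HFD.

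The share of Akt2 in the sum of Akt1 and Akt2 was 80.5% ± 2.63 in ND, 60.7% ± 2.29 in HFD, 74.6% ± 4.13 in CLE and 72.7% ± 5.21 in LU (SD, n = 3). The HFD mice spanned 58.6% to 63.2%, and the lowest value of any other mouse was 68.4%. The exact two-sided permutation p was 0.1 for HFD against ND, CLE against HFD and LU against HFD, the smallest possible, and 0.15 after adjustment. As a ratio within each library, this share does not depend on how libraries were scaled to each other. It does depend on the assembled entries, in which the higher Akt1 values of the HFD mice lay.

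**Figure D2:**
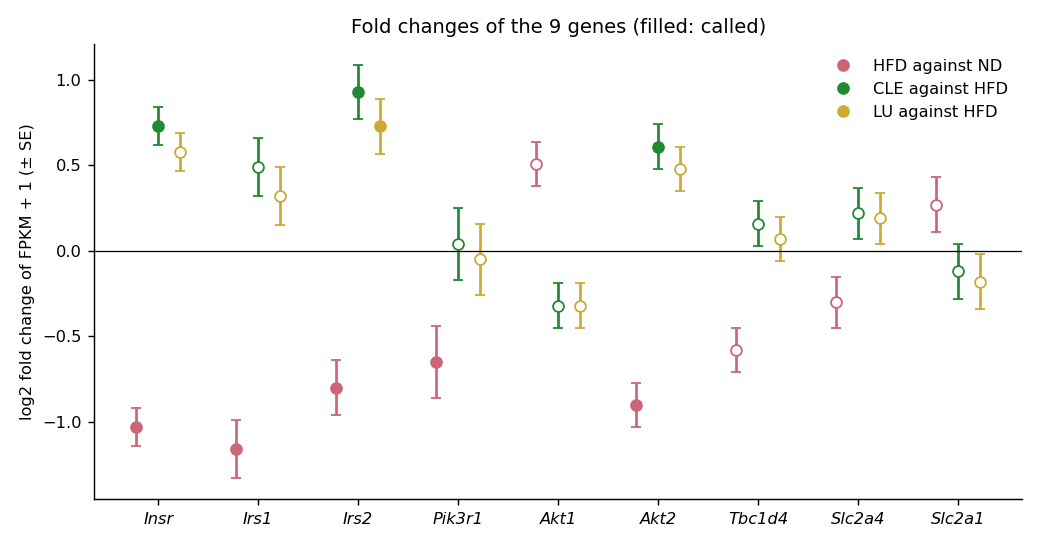
Log2 fold changes of FPKM + 1 (vertical axis, ± SE from limma) of the 9 genes for HFD against ND, CLE against HFD and LU against HFD. Filled points are called genes. Insr, Irs1, Irs2, Pik3r1 and Akt2 are filled below 0 for HFD, and Akt1 is the gene with the highest value for HFD and the lowest for CLE.

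The fall of Akt2 in HFD was also unequal over its transcripts. The entries of Akt2 were grouped by their start, a step chosen after the transcript values were seen. The upstream start is at chr7:27591552 and the downstream start at chr7:27605797, 14245 bases further on. Within 1000 bases of the upstream start 9 entries began, the main one at chr7:27591746, and within 250 bases of the downstream start 8 began, the main one at chr7:27605858. The 9 further entries belonged to neither and held 4 to 8.01 FPKM per mouse. Entries from the upstream start summed to 72.5, 64 and 62.2 FPKM in ND mice 2, 3 and 4 and to 58.9, 58.6 and 54.8 FPKM in HFD mice 12, 15 and 18, with no overlap. Those from the downstream start summed to 157, 143 and 131 FPKM in ND and to 51.7, 56.3 and 49.3 FPKM in HFD. In the CLE mice the downstream entries had 114, 104 and 85.4 FPKM, and in the LU mice 91.8, 111 and 73 FPKM. The upstream entries had 79.9, 63 and 65.2 FPKM in CLE and 62.6, 68.6 and 58.4 FPKM in LU, so HFD overlapped with LU there but not with CLE.

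The downstream start held 68.4% ± 0.705 of both in ND, 47.7% ± 1.18 in HFD, 59.2% ± 2.81 in CLE and 59% ± 3.19 in LU (SD, n = 3). No HFD mouse reached the range of another group, and the exact permutation p was 0.1 in each comparison with HFD, the smallest possible. Because the grouping by start was chosen after these values were seen, this p gives it no support. In a limma fit over 37646 transcript entries, the main downstream entry was called in HFD against ND (log2 fold change -1.51 ± 0.17, adjusted p = 0.00019), in CLE against HFD (0.98 ± 0.17, adjusted p = 0.0052) and in LU against HFD (0.85 ± 0.17, adjusted p = 0.016). The main upstream entry had -0.11 ± 0.15, 0.30 ± 0.15 and 0.12 ± 0.15 in these comparisons and was not called. Of all entries, 19.8%, 8.69% and 5.92% were called. Whether the 2 starts differ in their response was not tested across entries, and the division of fragments between entries is an estimate.

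The 250 bases before these 2 starts are shown because the larger part of the difference lay on the downstream side. The sequences are from RefSeq on GRCm38.p6, plus strand, at chr7:27591302-27591551 and chr7:27605547-27605796, and capitals mark a match to a searched motif.
Akt2 upstream start: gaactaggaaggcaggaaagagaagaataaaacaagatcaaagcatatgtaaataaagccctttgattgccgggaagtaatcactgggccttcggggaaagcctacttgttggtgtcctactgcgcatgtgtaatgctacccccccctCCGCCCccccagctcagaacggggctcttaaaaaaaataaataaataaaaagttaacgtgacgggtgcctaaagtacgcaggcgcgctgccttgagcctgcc
Akt2 downstream start: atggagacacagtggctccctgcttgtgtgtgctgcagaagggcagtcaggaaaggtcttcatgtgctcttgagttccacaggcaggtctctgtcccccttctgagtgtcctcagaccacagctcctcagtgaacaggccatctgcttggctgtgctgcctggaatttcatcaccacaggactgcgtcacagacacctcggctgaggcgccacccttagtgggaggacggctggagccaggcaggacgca
The motifs searched on both strands were the E box CACGTG, the forkhead motif GTAAACA, the GC box GGGCGG, the TATA box TATAAA and the CCAAT box CCAAT. The upstream sequence held 1 GC box, read as CCGCCC, and the downstream sequence held none of the 5 motifs. Of 32851 promoter sequences, 32.7% held a GC box, 33.8% a CCAAT box, 12.4% a TATA box, 6.02% the E box and 3.17% the forkhead motif. The upstream sequence had 10 CpG dinucleotides and a GC content of 48.8%, and the downstream one had 5 and 58.8%, beside medians of 6 and 52.4% over all promoters. The promoter of Irs1 held 1 E box and 2 GC boxes, and that of Irs2 held 1 E box, 1 GC box and 2 CCAAT boxes. Promoter sequences were matched for 7 of the 9 genes.

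**Figure D3:**
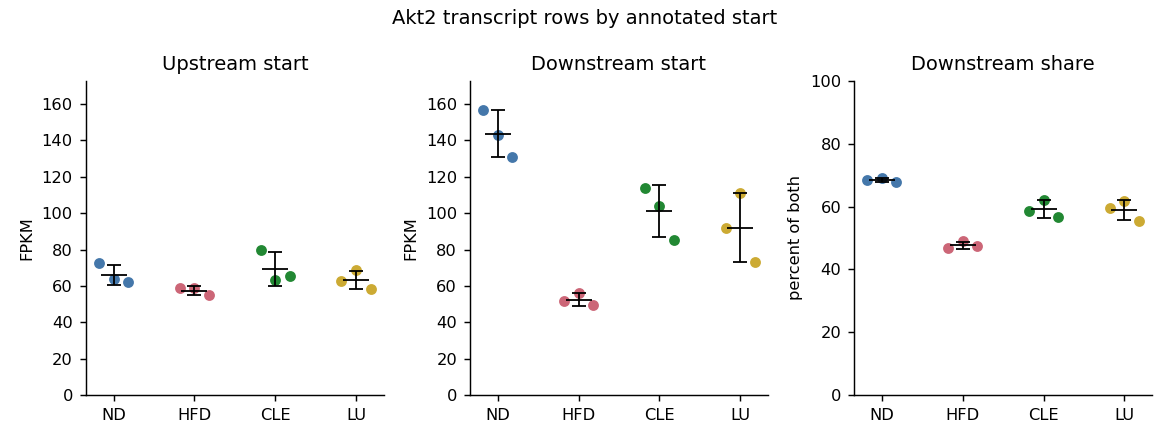
Akt2 entries of the transcript table by start, with FPKM from the upstream start, FPKM from the downstream start (both on the same vertical scale) and the downstream share in percent, for each mouse. Points are mice, and bars give the mean ± SD of 3 mice. The HFD mice have 49.3 to 56.3 FPKM from the downstream start and the ND mice 131 to 157 FPKM, while the upstream values of all groups lie between 54.8 and 79.9 FPKM.

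Tbc1d4 (AS160), the Akt substrate that retains GLUT4 vesicles, lies at chr14:101442360-101609191 (minus strand). ND mice 2, 3 and 4 had 17.6, 25.3 and 19.9 FPKM, HFD mice 12, 15 and 18 had 13.5, 13.8 and 13.4 FPKM, CLE mice had 17.8, 13.1 and 15.4 FPKM and LU mice had 14.5, 14.9 and 13.6 FPKM. The ND and HFD mice did not overlap. The log2 fold change of HFD against ND was -0.58 ± 0.13 (adjusted p = 0.0034, limma), just under the required size. It became a call without ND mouse 2 (-0.69), ND mouse 4 (-0.61) or HFD mouse 15 (-0.59). Against HFD, CLE differed by 0.16 ± 0.13 and LU by 0.07 ± 0.13, and neither was called. In the limma fit of single entries, the main Tbc1d4 entry had -0.28 ± 0.16 in HFD against ND (adjusted p = 0.25). An assembled entry of the 3′ part was called lower (-1.37 ± 0.31, adjusted p = 0.01).

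Slc2a4 encodes GLUT4, the insulin-responsive transporter at the end of the route, and lies at chr11:69942539-69948188 (minus strand). ND mice 2, 3 and 4 had 42.3, 64.4 and 49.1 FPKM, and HFD mice 12, 15 and 18 had 40.0, 45.8 and 39.0 FPKM. CLE mice 2, 4 and 11 had 55.2, 43.1 and 47.7 FPKM, and LU mice 2, 3 and 8 had 51.2, 43.8 and 47.8 FPKM. The values of the 3 other groups overlapped with those of HFD. The log2 fold change of HFD against ND was -0.30 ± 0.15 (adjusted p = 0.11, limma). Without the libraries with the letter R, which leaves ND mouse 2 alone in its group, it was -0.03. CLE and LU differed from HFD by 0.22 ± 0.15 and 0.19 ± 0.15 (adjusted p = 0.27 and 0.36).

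Slc2a1 encodes GLUT1, which carries glucose into most cells without a need for insulin, and lies at chr4:119108711-119137983 (plus strand). ND mice 2, 3 and 4 had 9.79, 6.01 and 6.81 FPKM, and HFD mice 12, 15 and 18 had 9.26, 9.08 and 9.08 FPKM. CLE mice had 6.65, 9.13 and 9.47 FPKM, and LU mice had 7.66, 7.51 and 8.82 FPKM. ND mouse 2 lay above all HFD mice and the other ND mice below them. The log2 fold change of HFD against ND was 0.27 ± 0.16 (adjusted p = 0.17, limma), and it was -0.12 ± 0.16 for CLE and -0.18 ± 0.16 for LU against HFD. In the sum of both transporters, the share of Slc2a4 was 86.8% ± 5.2 in ND, 81.9% ± 1.33 in HFD, 85.1% ± 3.66 in CLE and 85.6% ± 1.3 in LU (SD, n = 3). The exact permutation p was 0.2 for HFD against ND, 0.3 for CLE and 0.1 for LU against HFD, with 0.26, 0.34 and 0.15 after adjustment.

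Between CLE and LU, none of the 9 genes was called, and limma gave none of them an unadjusted p under 0.05, beside 0.00783% of all genes called. Their log2 fold changes of CLE against LU ran from -0.00 (Akt1) to 0.20 (Irs2), each with a standard error between 0.11 and 0.21. The ranges of the 2 groups overlapped for all 9 genes, while 9.03% of all genes did not overlap. With 3 mice per group, a difference of this size was not detectable, which does not show that CLE and LU act alike.

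The other genes of the pathway, 83 in 7 lists of which 82 were tested, changed in both directions. In HFD against ND, 13 of the 82 rose and 11 fell, 24 in all or close to the 25.6% of all genes. Their median log2 fold change was -0.04. In CLE against HFD, 5 of the 82 rose and 9 fell, beside 6.33% and 10.1% of all genes. In LU against HFD, 4 rose and 8 fell, beside 4.81% and 7.64% of all genes. The medians were 0.01 and -0.00. Against ND, 3 of the 82 were called in CLE and 4 in LU, beside 2.91% and 6.59% of all genes. These counts are close to the shares of all genes. Among the 13 that rose in HFD, Enpp1 and Slc2a6 would not have passed the filter on low values without the HFD mice. Calls within single lists stand beside 14.9% of all genes higher and 10.8% lower in HFD.

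Among 10 further genes at the receptor and its adaptors, 2 rose and 2 fell in HFD, beside 14.9% and 10.8% of all genes. Grb10 encodes an adaptor that binds the receptor and dampens its signal. It had 52.5, 29.1 and 34.9 FPKM in ND mice 2, 3 and 4 and 13, 15.3 and 14.8 FPKM in HFD mice 12, 15 and 18, and it fell by 1.33 ± 0.22 on the log2 scale (adjusted p = 0.00043, limma). Grb10 rose by 1.07 ± 0.22 with CLE and by 0.75 ± 0.22 with LU against HFD. Grb14, a related adaptor, fell by 0.60 in HFD and was also lower in CLE than in ND (-0.80 ± 0.17, adjusted p = 0.022). Grb2, which links the receptor to the Ras route, and the ubiquitin ligase gene Cbl rose in HFD by 1.09 and 0.90. Both fell with CLE, Grb2 from a mean of 72.5 to 36 FPKM and Cbl by 0.68 on the log2 scale, and with LU, by 0.60 and 0.66.

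At the level of the lipid kinase, Pik3cd rose in HFD, and Pik3cb and Pik3r3 fell. Pik3cd encodes the catalytic subunit typical of leukocytes. It had 4.01, 4.56 and 3.58 FPKM in ND mice 2, 3 and 4 and 17.3, 16 and 17.3 FPKM in HFD mice 12, 15 and 18, a log2 fold change of 1.83 ± 0.13 (adjusted p = 1.2e-06, limma). It fell by 1.15 with CLE and by 1.04 with LU. Pik3cb, a subunit of broad expression, fell from a mean of 33.1 to 13.9 FPKM in HFD (-1.13 ± 0.23, adjusted p = 0.0018). Pik3r3 fell by 0.60 in HFD and rose by 0.65 ± 0.17 with CLE (adjusted p = 0.01).

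Of 14 genes that oppose the signal, 4 rose and 2 fell in HFD, beside 14.9% and 10.8% of all genes. Ptpn1 encodes PTP1B, the phosphatase that removes phosphate from the receptor. It had 19, 15 and 17.3 FPKM in ND mice 2, 3 and 4 and 36.1, 34.4 and 36.7 FPKM in HFD mice 12, 15 and 18 (log2 fold change 1.02 ± 0.14, adjusted p = 9.9e-05, limma). It fell by 0.84 ± 0.14 with CLE and by 0.76 ± 0.14 with LU. Inpp5d, the lipid phosphatase SHIP1 of blood cells, rose by 2.37 ± 0.22 in HFD and fell by 1.51 with CLE and by 1.10 with LU. Enpp1, whose product binds and inhibits the receptor, rose from a mean of 0.446 to 2.67 FPKM and fell by 1.06 with CLE and by 1.02 with LU. Enpp1 reached 1 FPKM only in the 3 HFD mice and so passed the filter on low values through them alone. Its calls therefore give no support. Trib3, whose product binds Akt, fell by 1.12 in HFD and rose by 0.78 with CLE and by 0.68 with LU.

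Of 12 targets and effectors of Akt, Foxo3 rose and Pde3b and Gys1 fell in HFD. Pde3b, the phosphodiesterase through which insulin restrains lipolysis, had 208, 169 and 140 FPKM in ND mice 2, 3 and 4 and 65.8, 74.4 and 65.5 FPKM in HFD mice 12, 15 and 18. It fell by 1.30 ± 0.18 (adjusted p = 0.00011, limma), rose by 0.90 ± 0.18 with CLE and by 0.67 ± 0.18 with LU, and stayed lower in LU than in ND (-0.63 ± 0.18, adjusted p = 0.038). Gys1, the glycogen synthase of muscle and fat, fell by 0.87 ± 0.13 in HFD.

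Among 18 genes of GLUT4 vesicle traffic, Snap23 and Stxbp3 rose and Vamp2 fell in HFD. Vamp2 encodes the v-SNARE of the GLUT4 vesicle. It had 61.5, 49.6 and 51.1 FPKM in ND mice 2, 3 and 4 and 26.1, 28.8 and 31.6 FPKM in HFD mice 12, 15 and 18 (log2 fold change -0.88 ± 0.11, adjusted p = 5.4e-05, limma). Stxbp3, a regulator of the target-side syntaxin, rose by 0.63 ± 0.10 in HFD and fell by 0.66 ± 0.10 with CLE. None of these 18 genes was called in LU against HFD, where 7 had an adjusted p under 0.05, beside 26.8% of all genes.

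Of 7 other glucose transporter genes tested, 2 rose and 2 fell in HFD, beside 14.9% and 10.8% of all genes. Slc2a3, which encodes GLUT3, had 9.06, 6.4 and 7.35 FPKM in ND mice 2, 3 and 4 and 2.68, 2.24 and 1.88 FPKM in HFD mice 12, 15 and 18, and fell by 1.39 ± 0.27 (adjusted p = 0.0012, limma). CLE mice 2, 4 and 11 had 6.76, 13.8 and 5.12 FPKM, and LU mice 2, 3 and 8 had 7.26, 6 and 4.75 FPKM, a rise of 1.45 ± 0.27 and of 1.09 ± 0.27 against HFD. Slc2a6 and Slc2a9 rose in HFD by 0.97 and 0.78, and Slc2a13 fell by 0.78. Slc2a6 reached 1 FPKM only in the 3 HFD mice and CLE mouse 11. Without the HFD mice it would not have passed the filter on low values, so its call gives no support. Of 8 genes for transcription factors that act on Slc2a4, none was called by limma in HFD against ND, CLE against HFD or LU against HFD. In these comparisons 5, 4 and 2 of the 8 had an unadjusted p under 0.05, beside 7225, 5610 and 5009 of all 12775 genes. In HFD against ND, 4 of the 8 had an adjusted p under 0.05, beside 50.5% of all genes. Pparg and Cebpa were at -0.44 ± 0.13 and -0.48 ± 0.13 there.

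**Figure D4:**
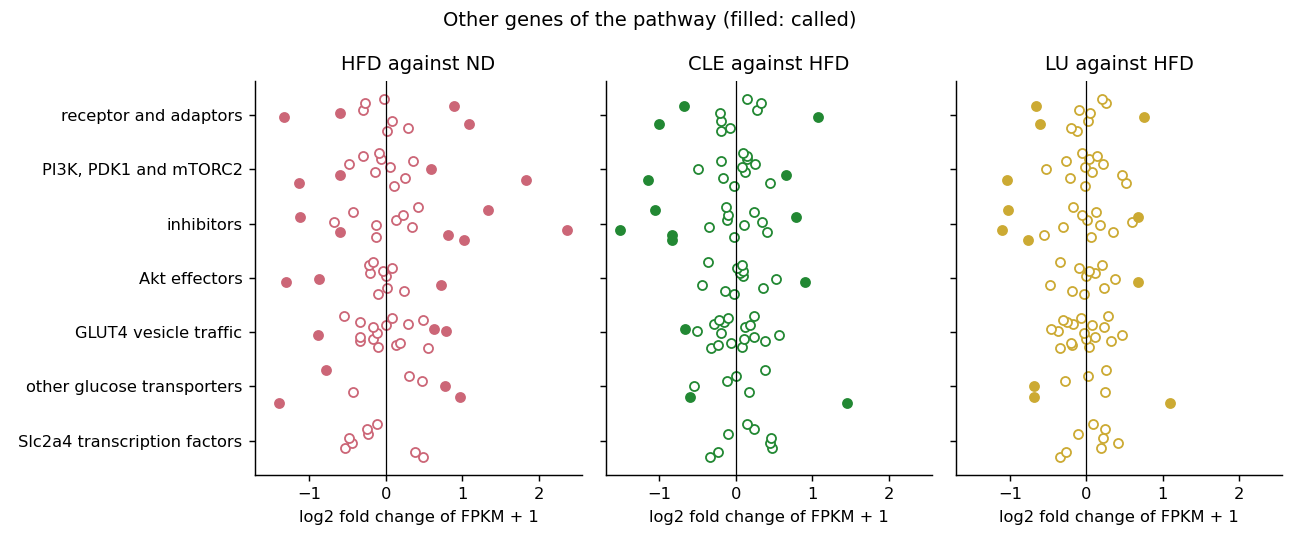
Log2 fold changes of FPKM + 1 (horizontal axes) of the other pathway genes in 7 lists, for HFD against ND, CLE against HFD and LU against HFD. Each point is a gene, filled where called. Filled points lie on both sides of 0 in 6 of the 7 lists for HFD against ND, and the transcription factors of Slc2a4 have none.

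Markers of several cell types moved with these groups. The summed level of 8 adipocyte markers was 32608 to 34993 FPKM in ND, 16805 to 18910 in HFD, 25920 to 28667 in CLE and 24454 to 29683 in LU. Of these 8, 7 fell in HFD, among them Adipoq by 0.84, and Lep rose by 2.34, beside 10.8% of all genes called lower and 14.9% higher. The summed level of 8 macrophage markers was 359 to 539 FPKM in ND, 2314 to 2677 in HFD, 616 to 877 in CLE and 974 to 1074 in LU. All 8 rose in HFD, beside 14.9% of all genes. They fell with CLE and with LU, beside 10.1% and 7.64% of all genes. Cd68 rose from a mean of 14.9 to 266 FPKM and Adgre1 from 8.86 to 146 FPKM. In whole tissue, fewer cells of a type and less RNA per cell cannot be told apart, and the part of these markers in the results was not tested.

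Summed over 6 endothelial markers, the levels were 327 to 519 FPKM in ND, 232 to 371 in HFD, 396 to 569 in CLE and 440 to 505 in LU. In HFD 1 of the 6 fell, beside 10.8% of all genes. With CLE 3 rose and with LU 4 rose against HFD, beside 6.33% and 4.81% of all genes. Pecam1 was not called. The 6 markers of progenitors or fibroblasts summed to 1177 to 1318 FPKM in ND, 1078 to 1215 in HFD, 794 to 1138 in CLE and 956 to 1197 in LU. Of these 6, Col1a1, a collagen chain, was called in each comparison with HFD, with means of 42.7 FPKM in ND, 188 in HFD, 67.2 in CLE and 95.8 in LU, and the other 5 were not called. Of all genes, 25.6% were called in HFD against ND, 16.5% in CLE against HFD and 12.4% in LU against HFD. The summed markers of T cells, B cells and skeletal muscle were at most 5.86, 4.5 and 9.86 FPKM in any mouse, and those of epididymis at most 5.26 FPKM. The summed liver markers were at most 30.9 FPKM in ND, 10.6 in HFD, 25.7 in CLE and 5.27 in LU, and Alb fell by 2.23 in HFD and rose by 1.56 with CLE. The summed mesothelial markers were 6.55 to 45.5 FPKM in ND, 2.03 to 6.14 in HFD, 5.43 to 9.34 in CLE and 5.99 to 13.4 in LU. Of these 4 markers 3 fell in HFD (Msln, Upk3b and Krt19, median of all 4 -1.46), beside 10.8% of all genes. None of the 4 was called with CLE or LU against HFD.

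Each library was also centred on the mean log2 level of the 8 adipocyte markers, which takes 1 value per library from all genes. Every log2 fold change moved by the same amount. This was 0.740 in HFD against ND, -0.661 in CLE against HFD and -0.492 in LU against HFD. After this shift 63% of all genes were called in HFD against ND, 58.7% in CLE against HFD and 33.5% in LU against HFD, and only 1.22% of all genes were called lower in HFD. Counts of the 9 genes on this scale stand beside these shares. On it the log2 fold changes of HFD against ND were -0.29 for Insr, -0.42 for Irs1, -0.06 for Irs2, 0.09 for Pik3r1, -0.16 for Akt2 and 0.16 for Tbc1d4, none of them a call. Slc2a4 was at 0.44, and Akt1 (1.25) and Slc2a1 (1.01) were called higher. In CLE against HFD, Insr, Irs2 and Akt2 were at 0.07, 0.27 and -0.05 and were not called, while Pik3r1 (-0.62), Akt1 (-0.98) and Slc2a1 (-0.78) were called lower. In LU against HFD, Irs2 was at 0.23, and Akt1 (-0.81) and Slc2a1 (-0.67) were called lower. The order of the 9 genes is the same on both scales by construction and is not a result.

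**Figure D5:**
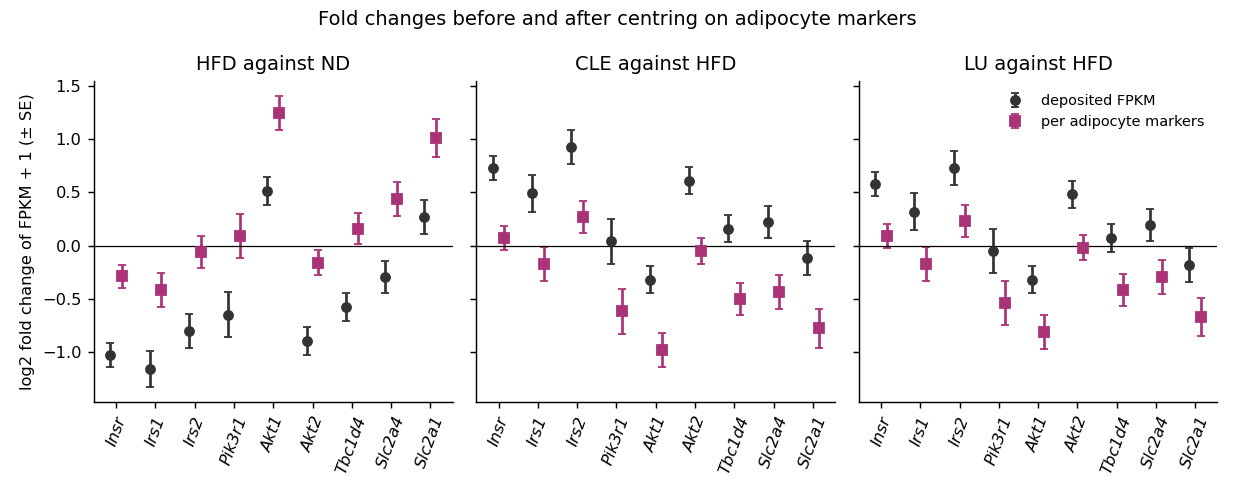
Log2 fold changes of FPKM + 1 (vertical axis, ± SE from limma) of the 9 genes on the deposited scale (circles) and after each library was centred on 8 adipocyte markers (squares), for 3 comparisons. In HFD against ND, Insr moves from -1.03 to -0.29 and Akt1 from 0.51 to 1.25.

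The genes whose levels were most like those of 4 members were listed by Pearson's r of log2(FPKM + 1) over the 12 libraries. These correlations include the differences between the 4 diet groups and carry no test. For Insr they were Bckdha (0.988), Scn7a, Cfd, Klhl2 and Grhpr (0.985). For Irs1 they were Lman2l (0.975), Gm9747, Slc43a1 and Net1 (0.971). Those for Slc2a4 reached only 0.924 with Mdh1, followed by Trappc9, Ppp2r5d, Thnsl2 and Laptm4b (0.875). For Slc2a1 they were Ttc39b (0.921), Ftsj3, Rhbdf2, Mif and Lrch1 (0.887).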

How the data were processed

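The 9 genes, the pathway lists and the marker lists were chosen with earlier results of these data known. RNA of eWAT from 12 mice was sequenced. Per the labels' processing notes, CASAVA 1.8.2, Bowtie2 2.2.3, TopHat2 2.0.12 and Cufflinks 2.2.1 were used. The authors deposited FPKM values for 152210 transcripts, quantified with Cuffdiff, on GRCm38 coordinates. Read counts are not given in it, and sequencing depth is therefore unknown. The table has 15 FPKM columns, of which 3 fit no label and were left aside. The column headed MD4 was assigned to ND mouse 4 by inference from its number and place. Columns with the authors' own calls between groups were not used.

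Entries with an Ensembl transcript, plain or of Cufflinks class code = or j (assembled, with shared splicing), were summed per GENCODE M21 gene. Genes that reached 1 FPKM in 3 or more libraries (12775) were fitted with limma 3.58.1 (R 4.3.3) on log2(FPKM + 1), all 12 libraries in 1 fit with a coefficient per group and no covariate. The fit was also run on simulated data with independent noise and few changed genes. That setting is simpler than these data, so it gives no assurance for them. Shares were compared with exact permutation tests. Named genes were the 9 members, per list and comparison at most 4 called genes of the largest change, 8 defining markers and the 5 genes most like each of Slc2a4, Slc2a1, Irs1 and Insr. Entries of Akt2 by start, the fit over transcript entries and a second adipocyte centring were added after seeing the data. Python 3.11.15, pandas 2.3.3, numpy 2.4.6 and matplotlib 3.10.9 were used. The results of 3 genes are not reported here.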

Additional observations from a re-analysis of the deposited data

How the results depend on the processing

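The alternatives were another pseudocount, filter, scaling, set of samples, moderation or weighting, the letter R as a covariate or left out, the mouse numbers as a replicate block, another choice of transcripts, and each library left out in turn. A filter on a mean of 5 FPKM removed Irs1, which then has no value. Depth is unknown, and 3 mice per group limit the precision.

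In HFD against ND, 5 members were called. They were 2, both higher, after centring on adipocyte markers, with or without Lep and Cfd, and 3 without class code j. Of all genes, 25.6% were called, 63% and 67.3% after the 2 centrings and 25.8% without class code j. The other pathway genes called, 24, became 52 and 55 of 82 after the 2 centrings (50 and 54 of them higher, beside 13 of 24), near those shares, and 43 with the adjusted p alone. In CLE against HFD, the 14 became 44 and 51 after centring (43 and 50 lower, beside 58.7% and 62.5% of all genes called) and 30 with the adjusted p alone. In LU against HFD, the 1 member called became 2 with a pseudocount of 0.1, quantiles, the letter R as a covariate or the highest transcript, 2 and 3 (all lower) after centring, and 3 with the adjusted p alone. The 12 other pathway genes became 33 and 36 after centring (33.5% and 39.7% of all genes), 5 with the highest transcript and 25 with the adjusted p alone. Against ND, the 1 member called in CLE became 0 in 12 of the alternatives. The 3 other genes became 1 with the highest transcript or without class code j, and 0 in a fit of only the groups compared. In that fit limma called none of the 12775 genes (2288 at an unadjusted p below 0.05). In LU against ND, the 2 members became 1 in 9 alternatives and 4 with the adjusted p alone (12.8% of all genes). The 4 other genes became 2 without a filter, in a fit of only the groups compared or with array weights, and 9 with the adjusted p alone. Without the letter R, ND mouse 2 stands alone in its group, so counts of calls against ND are not given.

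Centring on the adipocyte markers turned the sign of several members (in parentheses without Lep and Cfd). For HFD against ND these were Pik3r1 at 0.09 (0.14), Tbc1d4 at 0.16 (0.21) and Slc2a4 at 0.44 (0.49). For CLE against HFD they were Irs1 at -0.17 (-0.20), Pik3r1 at -0.62 (-0.66), Akt2 at -0.05 (-0.09), Tbc1d4 at -0.50 (-0.53) and Slc2a4 at -0.44 (-0.48). For LU against HFD they were Irs1 at -0.17 (-0.22), Akt2 at -0.02 (-0.07), Tbc1d4 at -0.42 (-0.47) and Slc2a4 at -0.30 (-0.35). Against ND, Slc2a4 came to 0.00 (0.02) in CLE and 0.14 (0.14) in LU, and Irs2 to 0.18 (0.18) in LU. Between CLE and LU, Insr came to -0.02 (-0.01), Pik3r1 to -0.08 (-0.07), Akt2 to -0.04 (-0.02), Tbc1d4 to -0.08 (-0.06), Slc2a4 to -0.14 (-0.13), Slc2a1 to -0.11 (-0.10) and Irs1 to -0.00 with all 8 markers.

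Without the letter R, Slc2a1 came to -0.09 in HFD, -0.27 in CLE and -0.24 in LU against ND and to -0.03 in CLE against LU, Slc2a4 to 0.27 in CLE and 0.11 in LU against ND, Irs2 to -0.23 in CLE against ND, Akt1 to -0.02 in LU against ND and 0.04 in CLE against LU, and Pik3r1 to 0.03 in LU against HFD. The difference in the share of Slc2a4 between HFD and ND then was 0.71 percentage points, against -4.92. All comparisons with ND without the letter R rest on ND mouse 2 alone. Near 0 the sign also turned for Pik3r1 in CLE against HFD with array weights (-0.01), the highest transcript (-0.00) and without class code j (-0.06), for Tbc1d4 in LU against HFD with the highest transcript (-0.18) and without class code j (-0.19), for Insr (0.05) and Irs2 (-0.10) in CLE against ND with the highest transcript, for Irs2 in LU against ND (0.02) and Slc2a4 in CLE against LU (-0.02) with array weights, and for Akt1 in CLE against LU with equal totals (0.02), median ratios (0.03), quantiles (0.02) and without class code j (0.09).

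With 1 library left out, the number of members called was 4 to 7 in HFD against ND and 2 to 3 in CLE against HFD. It was 1 to 3 in LU against HFD, 0 to 1 in CLE against ND and 1 to 2 in LU against ND. That of other pathway genes was 22 to 26, 12 to 16, 7 to 13, 0 to 3 and 2 to 7 in the same order. The sign turned only near 0: in CLE against HFD for Pik3r1 (-0.05 to 0.15) and Slc2a1 (-0.20 to 0.02), in LU against HFD for Pik3r1 (-0.22 to 0.04), in CLE against ND for Irs2 (-0.00 to 0.34) and Slc2a4 (-0.21 to 0.08), in LU against ND for Irs2 (-0.17 to 0.13), Slc2a4 (-0.24 to 0.06) and Slc2a1 (-0.03 to 0.28), and in CLE against LU for Irs1 (-0.02 to 0.40), Pik3r1 (-0.00 to 0.26), Akt1 (-0.10 to 0.07), Tbc1d4 (-0.01 to 0.20), Slc2a4 (-0.07 to 0.11) and Slc2a1 (-0.03 to 0.20). The causes were not tested.

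Some groups share mouse numbers, but correlations of the deviations of same-numbered mice were -0.10 to 0.19, so the numbers were not taken as a pairing. With the mouse number as a replicate block, 5, 3 and 1 members were called in the 3 comparisons with HFD, as without it, and 22, 14 and 12 other pathway genes.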
